A study of Mus musculus with 4 samples.

Results

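The mitosis and G2/M genes described here are 38 transcripts of the division machinery, taken from a list of gene names, and all 38 were found among the 22266 genes of the deposited table. They were followed in mouse embryonic stem cells in which CBX2, a chromodomain protein of Polycomb repressive complex 1, was deleted. The OHT group (n = 2 libraries, day 2, genotype labelled knockout) received 1.0 µM 4-hydroxytamoxifen for 48 hours, and the EtOH group (n = 2 libraries, day 0, genotype labelled wild type) received ethanol. All 4 libraries come from the female line PGK12.1, grown on gelatin in serum with leukemia inhibitory factor, with both Cbx2 alleles floxed and tagged with HaloTag, so the EtOH cells carry the floxed, tagged alleles too. The recombinase and the deleted exons are not named in the labels, no library here holds the drug without the floxed alleles, and day and treatment move together, so drug, time and deletion cannot be told apart. Whether the replicates of a group were separate cultures is not stated, and p-values then measure only the spread between these libraries, which may be technical.

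A dividing cell builds up cyclin B with its kinase CDK1 during G2, and their activation by CDC25 phosphatases starts mitosis. Polo and Aurora kinases then help to assemble the spindle, kinesins move its microtubules and chromosomes, and kinetochores tie chromosomes to it. The checkpoint proteins hold back the anaphase-promoting complex (APC/C) with its activator CDC20 until every chromosome is attached. Most of these genes are transcribed late in the cycle, through CCAAT boxes bound by NF-Y and through the cell cycle genes homology region (CHR), which MuvB complexes bind, with B-MYB and FOXM1 in proliferating cells and as the repressive DREAM complex in arrested cells. Embryonic stem cells cycle quickly, and mitotic transcripts are abundant in them.

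The promoters show what these genes share apart from their function. RefSeq windows (GRCm38.p6, 300 bases each, 250 before and 50 after the annotated start) were matched for 32 of the 38 genes. CCAAT, searched on both strands, lay in 24 of the 32 windows (75.0%), against 44.4% of 9583 genes tested here that have a window. A CHR, taken as TTTGAA or TTCGAA on either strand, lay in 25 (78.1%), against 16.3%. Both motifs lay in 21 (65.6%), against 7.42%, and 16 had at least 2 CCAAT boxes, against 17.7% of the tested genes. Genes with several windows were counted once, if any window held the motif. Such a match is a description of the letters and not evidence of binding. The stretches from 120 bases before to 14 bases after the start are shown for the cyclin B genes, their kinase, the phosphatase gene with the largest fold change among the 38, the APC/C activator and topoisomerase II, with CCAAT or its complement ATTGG, and TTTGAA, its complement TTCAAA, or TTCGAA in capitals:
Ccnb1 (chr13:100786473-100786606, minus strand): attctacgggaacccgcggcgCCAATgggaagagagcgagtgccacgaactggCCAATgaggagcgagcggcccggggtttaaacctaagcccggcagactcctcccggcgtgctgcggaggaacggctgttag
Ccnb2 (chr9:70421541-70421674, minus strand): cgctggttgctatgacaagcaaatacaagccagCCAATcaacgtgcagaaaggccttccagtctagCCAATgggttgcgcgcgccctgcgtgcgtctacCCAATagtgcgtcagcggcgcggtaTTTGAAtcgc
Cdk1 (chr10:69352899-69353032, minus strand): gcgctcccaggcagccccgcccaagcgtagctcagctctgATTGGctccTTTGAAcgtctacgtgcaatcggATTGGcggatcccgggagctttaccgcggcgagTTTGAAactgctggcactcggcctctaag
Cdc25b (chr2:131186828-131186961, plus strand): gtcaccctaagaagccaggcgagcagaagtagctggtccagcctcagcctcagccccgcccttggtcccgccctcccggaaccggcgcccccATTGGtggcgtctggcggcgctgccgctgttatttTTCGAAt
Cdc20 (chr4:118437330-118437463, minus strand): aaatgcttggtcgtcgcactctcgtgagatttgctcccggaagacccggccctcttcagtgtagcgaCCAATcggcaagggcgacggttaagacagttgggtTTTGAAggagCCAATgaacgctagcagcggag
Top2a (chr11:99024176-99024309, minus strand): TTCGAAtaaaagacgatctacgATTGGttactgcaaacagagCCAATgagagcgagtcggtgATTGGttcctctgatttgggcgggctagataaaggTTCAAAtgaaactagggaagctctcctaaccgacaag

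The CCAAT boxes of Ccnb1 shown above start 32 bases apart, those of Ccnb2 33 and 33 bases apart, and the inverted boxes of Cdk1 32 bases apart. The spacing was not shared by all: the boxes of Cdc20 shown start 45 bases apart. Those of Top2a shown, which alternate in strand, start 20 and 20 bases apart. The windows of Cdk1 and Top2a hold further CCAAT boxes beyond the stretches shown. Ccnb1 held no CHR of these letters in its window. Aurkb, Ccna2, Cdc25c, Incenp, Kif20a and Tpx2 had no window matched.

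As a check of the labels, Cbx2 read 0.749 and 1.14 TPM in OHT libraries, against 2.29 and 2.71 TPM in EtOH libraries (-0.85, SE 0.19, limma adjusted p = 0.265), lower in both OHT libraries. All 8 embryonic stem cell markers were at 177 TPM or more in every library. Of 9 fibroblast or feeder markers, 7 were below 1 TPM in every library, with Postn listed at 0 throughout. Of 10 germ layer markers, 5 stayed below 1 TPM in every library, and the others reached up to 15.2 TPM. The 10 germ layer markers summed to 19.0 and 23.5 TPM in OHT libraries, against 20.7 and 20.9 TPM in EtOH libraries. The stem cell markers summed to 12420 and 11109 TPM in OHT libraries, against 9564 and 9480 TPM in EtOH libraries. Most of that gap came from Dppa5a (means of 6356 TPM with OHT and 4673 TPM with EtOH). Pou5f1 was also higher, with 2229 and 2106 TPM in OHT libraries, against 1856 and 1862 TPM in EtOH libraries. On the lower side, Utf1 had means of 326 and 385 TPM and Sox2 of 453 and 461 TPM in OHT and EtOH libraries. The fibroblast markers summed to at most 23.1 TPM in OHT libraries, against at most 15.9 TPM in EtOH libraries, mostly from Col5a1 and Thy1, and their part in the results was not tested.

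In the group means, most mitotic transcripts lay close to their EtOH levels. Expressed as TPM (a length-corrected share of all transcripts in a library), 35 of the 38 genes had an OHT mean within 10% of the EtOH mean, with ratios of 0.906 to 1.09, and the other 3, Cdc25b, Cenpe and Kif20b, had ratios of 1.28, 1.20 and 1.14. In the limma fit over 12029 genes (mean TPM 1 or higher), none of the 38 passed an adjusted p of 0.05, where 0.0416% of all genes tested did. None had an unadjusted limma p under 0.05 either, against 10.5% of all genes tested (6.02% higher and 4.46% lower). The median log2 fold change, on the log2(TPM + 1) scale, was -0.03 for the 38 genes and 0.02 for all genes tested, with 17 of the 38 positive and 21 negative. The median size of the change, sign ignored, was 0.07 for the 38 and 0.15 for all genes tested. These are bulk libraries, in which fewer cells in G2 or mitosis and less of the RNA per cell cannot be told apart.

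The intervals show how large a difference the libraries leave room for. For 34 of the 38 genes, limma's 95% interval lay within a 1.5-fold change in either direction, against 49.0% of all genes tested. The 4 that did not were Cdc25b (-0.09 to 0.74), Cenpe (-0.33 to 0.78), Cenpf (-0.76 to 0.42) and Espl1 (-0.46 to 0.62, all log2 fold changes). Every member averaged at least 18.4 TPM, while the genes tested reach down to a mean of 1 TPM. In the other lists described below, 65.2% to 76.5% of genes had such an interval. The part of expression level in these shares and in the smaller median change was not tested. With 2 libraries a group, the interval leans on the spread shared over all genes, and an exact permutation test could not give a two-sided p below 0.333.

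**Figure D1:**
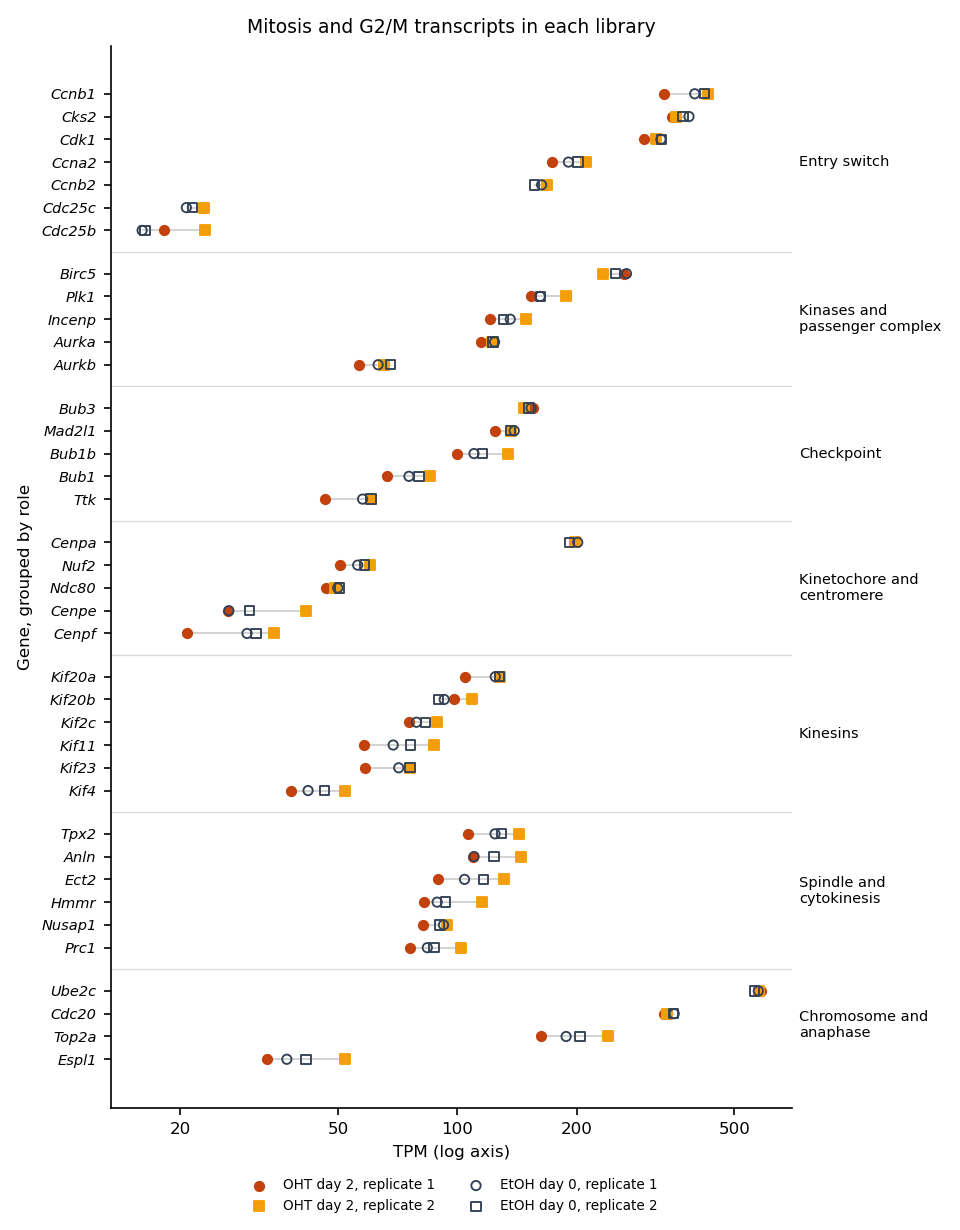
TPM on a log axis for each of the 38 genes in the 2 OHT libraries (filled) and the 2 EtOH libraries (open), grouped by role. In most rows the OHT libraries lie on either side of the EtOH libraries; Ube2c is highest and Cdc25b lowest.

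Summed over the 38 genes, the libraries held 4989 and 5708 TPM in OHT replicates 1 and 2, against 5382 and 5448 TPM in EtOH replicates 1 and 2. The OHT libraries thus flanked the EtOH libraries, 1 below and 1 above. Gene by gene, the same order held for 22 of the 38 (57.9%), with OHT replicate 1 below and OHT replicate 2 above both EtOH libraries, an order seen in 30.0% of all genes tested. Related lists described below had it as well: 64.7% of the APC/C, cohesin and condensin genes and 55.3% of the further spindle and division genes. It was less frequent among program regulators (43.5%), further kinetochore and checkpoint genes (38.2%) and DNA replication genes (23.9%). In levels, the range was wide: in the EtOH libraries Ube2c ranked at place 249 of all 22266 genes and Cdc25b at place 6032.

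The entry switch held the most genes whose groups did not overlap (71.4% of its 7, against 42.4% of all genes tested). Ccnb1 (cyclin B1) read 333 and 430 TPM in OHT libraries, against 397 and 420 TPM in EtOH libraries, so the EtOH values lay between the OHT values (log2 fold change -0.11, SE 0.14). Cdk1, its kinase, read 296 and 317 TPM in OHT libraries, against 326 and 327 TPM in EtOH libraries. Both OHT values of Cdk1 lay below both EtOH values, by a group mean of 306 ± 15.5 against 326 ± 0.437 TPM (SD, n = 2 each), and the difference did not pass (-0.09, SE 0.09, limma adjusted p = 0.785). Cks2, the small CDK-binding subunit, read 347 and 357 TPM in OHT libraries, against 384 and 371 TPM in EtOH libraries, likewise without overlap (-0.10, SE 0.08, adjusted p = 0.745). Cdc25b, the phosphatase that activates CDK1 at the centrosome, read 18.2 and 23.0 TPM in OHT libraries, against 16.0 and 16.3 TPM in EtOH libraries. It had the largest fold change and the smallest p of the 38 (0.32, SE 0.17, limma adjusted p = 0.573), with both OHT values above both EtOH values. Cdc25c, the related phosphatase, read 22.9 TPM in both OHT libraries, against 20.7 and 21.4 TPM in EtOH libraries (0.12, SE 0.14). Ccnb2 (cyclin B2) had means of 168 ± 0.320 TPM with OHT and 160 ± 4.76 TPM with EtOH, its OHT values also on the higher side (0.07, SE 0.09), and Ccna2, cyclin A2, stood at -0.04 (SE 0.12).

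Among the mitotic kinases, Plk1 (Polo-like kinase 1) read 153 and 188 TPM in OHT libraries, against 162 TPM in both EtOH libraries, again on either side (0.07, SE 0.12). Aurkb, the kinase of the chromosomal passenger complex, read 56.6 and 65.3 TPM in OHT libraries, against 63.1 and 67.9 TPM in EtOH libraries (-0.10, SE 0.12). Its partners Birc5 (survivin) and Incenp stood at -0.06 and 0.01, and Aurka, the spindle pole kinase, at -0.06 on the log2 scale. Of these 5 genes, Aurka was the only one without overlap, with both OHT values lower.

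The spindle checkpoint genes ran from -0.15 to 0.04 on the log2 scale, all 5 with overlapping groups, where 42.4% of all genes tested had no overlap. Ttk, which encodes the kinase MPS1 at the head of the checkpoint, read 46.5 and 60.6 TPM in OHT libraries, against 57.6 and 60.6 TPM in EtOH libraries (-0.15, SE 0.15). Bub1b, which encodes the inhibitor BUBR1, read 99.6 and 135 TPM in OHT libraries, against 110 and 116 TPM in EtOH libraries (0.04, SE 0.16). OHT replicate 1 was the lowest library in both genes, while OHT replicate 2 stood above the EtOH libraries in Bub1b and level with the higher of them in Ttk. Bub1, Bub3 and Mad2l1, the other checkpoint components, stood at -0.05, -0.01 and -0.08.

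Of the 5 kinetochore and centromere genes, Cenpf had the widest ratio between the OHT libraries of all 38 genes, and the median log2 difference between those libraries was 0.25 for this role, against 0.29 for the 38. Cenpe, the kinesin that carries chromosomes to the spindle equator, read 26.3 and 41.4 TPM in OHT libraries, against 26.5 and 29.9 TPM in EtOH libraries (0.22, SE 0.23). Cenpf, a large coiled-coil protein of the outer kinetochore named after its values were seen, read 20.7 and 34.5 TPM in OHT libraries, against 29.5 and 31.0 TPM in EtOH libraries (-0.17, SE 0.24, the lowest fold change of the 38). In both genes a single OHT library set the sign of the fold change: OHT replicate 2 in Cenpe and OHT replicate 1 in Cenpf. Cenpa, the centromeric histone H3 variant, had 197 ± 0.176 TPM in OHT libraries and 196 ± 6.55 TPM in EtOH libraries (0.01, SE 0.09). Ndc80 and Nuf2, which pair in the microtubule-binding NDC80 complex, stood at -0.07 and -0.05.

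Of the 6 kinesin motor genes, 5 had overlapping groups, and Kif20b did not (16.7% without overlap, against 42.4% of all genes tested). Kif11 (Eg5, the motor that pushes the spindle poles apart) read 58.0 and 87.0 TPM in OHT libraries, against 68.9 and 76.2 TPM in EtOH libraries (-0.03, SE 0.20). Kif20a, a motor of the central spindle and cytokinesis, read 104 and 128 TPM in OHT libraries, against 125 and 128 TPM in EtOH libraries (-0.13, SE 0.13). Kif23, the kinesin of centralspindlin, read 58.6 and 75.8 TPM in OHT libraries, against 71.1 and 76.0 TPM in EtOH libraries (-0.14, SE 0.15). In these 3 genes OHT replicate 1 was the lowest library. Kif20b, a further kinesin of cytokinesis, read 98.3 and 109 TPM in OHT libraries, against 92.6 and 89.6 TPM in EtOH libraries. Both of its OHT values were higher than both EtOH values, and it had the second smallest p of the 38 (0.18, SE 0.11, limma adjusted p = 0.624). Kif2c and Kif4 stood at 0.02 and 0.01.

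All 6 spindle and cytokinesis genes had OHT replicate 1 below and OHT replicate 2 above both EtOH libraries, as had 30.0% of all genes tested. These were Tpx2, the activator of Aurora A, the midzone bundler Prc1, the contractile ring scaffold Anln, the RhoA exchange factor Ect2, and the spindle proteins Nusap1 and Hmmr. Their log2 fold changes ran from -0.05 to 0.11. Top2a, which untangles sister chromatids, had that order too, with 163 and 239 TPM in OHT libraries, against 188 and 204 TPM in EtOH libraries (0.01, SE 0.19). Cdc20, the APC/C activator, read 333 and 338 TPM in OHT libraries, against 352 and 351 TPM in EtOH libraries, without overlap and lower (-0.07, SE 0.08, adjusted p = 0.829). Ube2c, the ubiquitin-conjugating enzyme of the APC/C, read 584 and 576 TPM in OHT libraries, against 574 and 561 TPM in EtOH libraries, without overlap and higher (0.03, SE 0.08, adjusted p = 0.928). Espl1, which encodes separase, stood at 0.08 (SE 0.22).

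**Figure D2:**
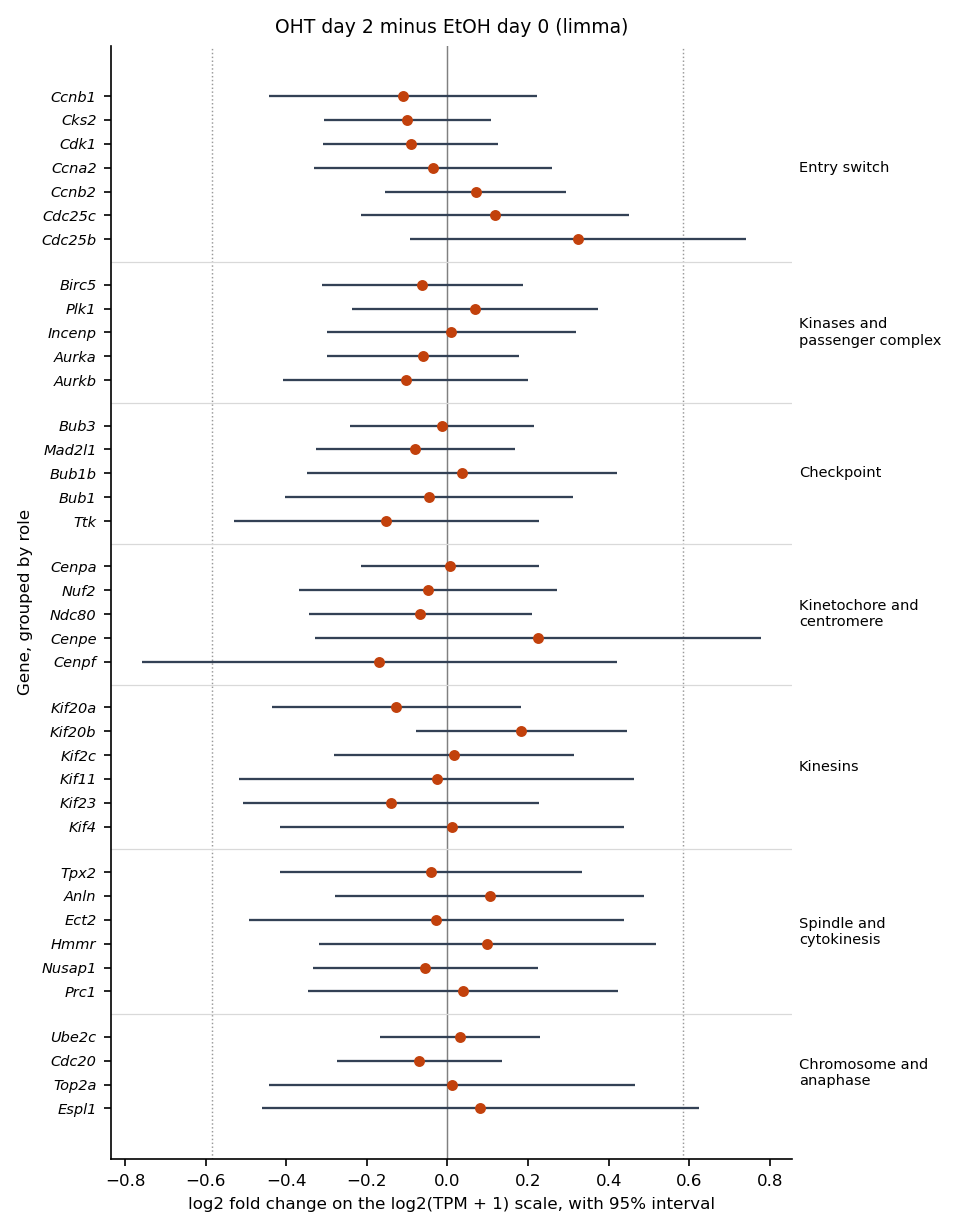
log2 fold change of OHT day 2 over EtOH day 0 on the log2(TPM + 1) scale for the 38 genes, as points with limma's 95% interval, grouped by role; dotted lines mark a 1.5-fold change. Every interval spans 0, and those of Cdc25b, Cenpe, Cenpf and Espl1 cross a dotted line.

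Counted over the roles, the OHT and EtOH libraries did not overlap for 10 of the 38 genes (26.3%), against 42.4% of all genes tested. Both OHT libraries were higher for 5 (13.2%), against 23.1% of all genes tested, and lower for 5 (13.2%), against 19.4%. The higher ones were Cdc25b, Cdc25c, Ccnb2, Kif20b and Ube2c, and the lower ones Cdk1, Cks2, Aurka, Ndc80 and Cdc20. Of these 10, 5 belong to the 7 genes of the entry switch. A role holds only 4 to 7 genes, and differences between roles were not tested.

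The difference between the OHT libraries moved with transcript length. OHT replicate 2 was above OHT replicate 1 for 35 of the 38 genes (92.1%), against 76.1% of all genes tested, by up to 1.66 times in Cenpf. Among lists described below, the share was 95.7% for program regulators, 89.5% for further spindle and division genes and 85.3% for APC/C, cohesin and condensin genes. For further kinetochore and checkpoint genes it was 76.5%, and for DNA replication genes 73.9%. Among the 13 members with the shortest transcripts (692 to 2842 nt) the median log2 difference between the OHT libraries was 0.08, among the 12 of middle length (2871 to 3674 nt) it was 0.31, and among the 13 longest (3892 to 11130 nt) it was 0.48. Across the 38 genes that difference followed log2 length (Pearson r = 0.64, Spearman rho = 0.65), as it did over 12016 tested genes (r = 0.56, rho = 0.62). The EtOH libraries differed from each other in the same direction, with a lower correlation (r = 0.46 over the 38). All points of such a relation share the same libraries, and lengths are those of the longest annotated coding transcript, which need not be the one expressed. The group difference itself followed length weakly (r = 0.13).

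**Figure D3:**
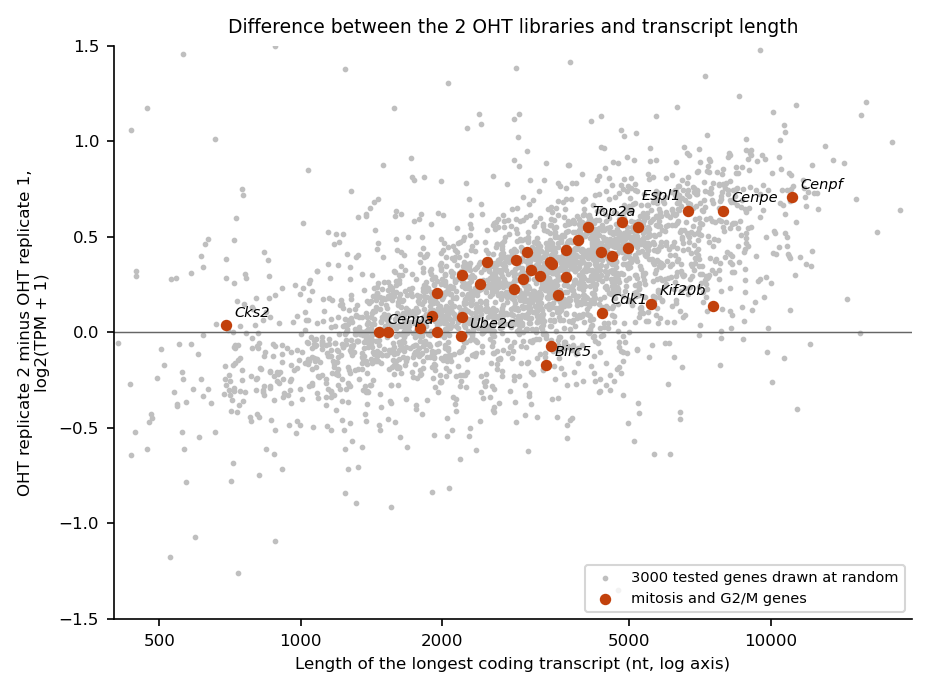
Difference between the 2 OHT libraries in log2(TPM + 1) (replicate 2 minus replicate 1) against transcript length in nt on a log axis, for the 38 genes and for 3000 tested genes drawn at random; points beyond the axes are not shown. Short transcripts such as Cks2 and Cenpa sit near 0, and long ones such as Espl1, Cenpe and Cenpf near the top.

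Each OHT library taken alone gave another answer. Without OHT replicate 1, 10 of the 38 genes were higher than in EtOH libraries at a limma adjusted p under 0.05 (Cdc25b, Plk1, Bub1b, Cenpe, Kif20b, Prc1, Anln, Hmmr, Top2a and Espl1), a share of 26.3% against 18.5% of all genes tested, and none was lower, against 6.11%. Without OHT replicate 2, 9 were lower (Ccnb1, Ttk, Cenpf, Kif11, Kif20a, Kif23, Tpx2, Ect2 and Top2a), a share of 23.7% against 14.5% of all genes tested, and none was higher, against 6.05%. Such a fit takes the spread of the remaining OHT library from the EtOH replicates, although the log2 difference between replicates had an SD over genes of 0.35 in OHT and 0.18 in EtOH libraries. Top2a stood in both sets, at 0.29 from OHT replicate 2 and at -0.27 from OHT replicate 1. After the removal of length and GC trends from each library, the member median was -0.01 and the median log2 difference between the OHT libraries was 0.05, where it had been 0.29 before. The flanking order then held for 7 genes in place of 22, and none of the 38 passed, against 2.06% of all genes tested. Cdc25b kept the largest fold change (0.25, SE 0.08, adjusted p = 0.155) and Cenpf the lowest (-0.21, SE 0.09, adjusted p = 0.219). Without overlap, 8 of the 38 members were then higher, against 28.1% of all genes tested, and 9 of the 38 were lower, against 28.2%. Cks2 then stood on the higher side (0.10, SE 0.06), and the groups of Cdk1, Ndc80, Kif20b and Ube2c, apart before, then overlapped. The part of length and GC content in the results was not tested.

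**Figure D4:**
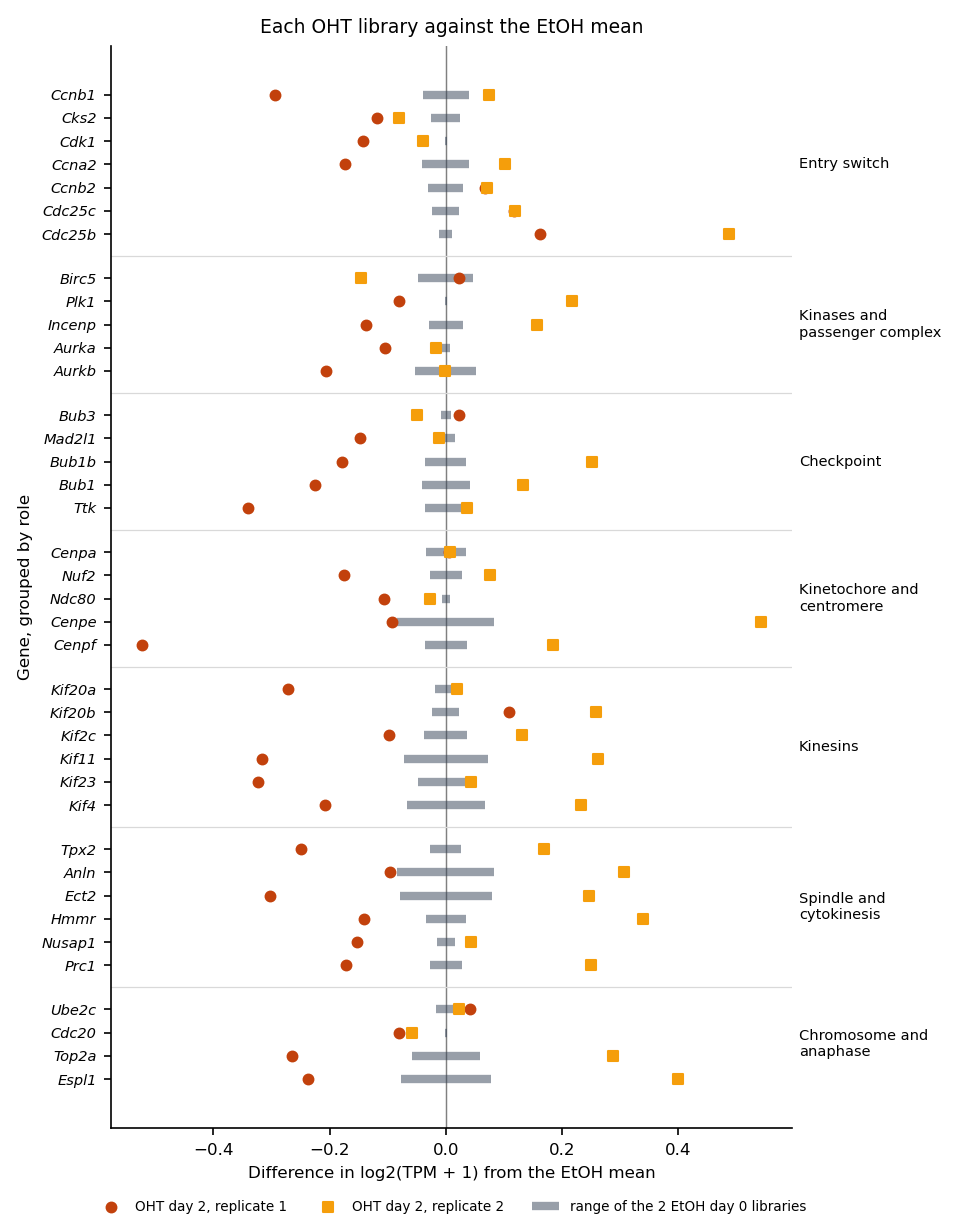
Difference of OHT replicate 1 (circles) and OHT replicate 2 (squares) from the EtOH mean in log2(TPM + 1) for the 38 genes, with bars for the range of the 2 EtOH libraries. Circles lie mostly left and squares mostly right of the bars; the medians are -0.15 for replicate 1 and 0.11 for replicate 2.

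Other genes of the same machinery were read from lists, of which none had a gene past the adjusted threshold. Of 34 further kinetochore and checkpoint genes, both OHT libraries were lower than both EtOH libraries for 12 (35.3%, against 19.4% of all genes tested) and higher for 1 (2.94%, against 23.1%), and the median was -0.05 on the log2 scale. Spc24, a subunit of the NDC80 complex beside Ndc80 and Nuf2, read 86.0 and 75.9 TPM in OHT libraries, against 118 and 107 TPM in EtOH libraries (-0.47, SE 0.12, limma adjusted p = 0.293). Its partner Spc25, named after its values were seen, read 89.8 and 97.1 TPM in OHT libraries, a mean of 93.5 ± 5.22 TPM, against a mean of 90.7 ± 1.05 TPM in EtOH libraries (SD, n = 2 each; 0.04, SE 0.10). The next smallest p-values belonged to Pmf1, a subunit of the MIS12 complex (-0.23, SE 0.10), and to the centromere protein gene Cenpp (-0.28, SE 0.13).

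Of 34 genes of the APC/C, cohesin and condensin, 8 were lower without overlap (23.5%, near the 19.4% of all genes tested) and 1 higher (2.94%, against 23.1%), with a median of -0.02. The APC/C subunit gene Cdc26 stood at -0.30 (SE 0.12), Ube2s, which extends ubiquitin chains on its substrates, at -0.19 (SE 0.09), and Pttg1 (securin, the inhibitor of separase) at 0.32 (SE 0.14), with 116 and 90.4 TPM in OHT libraries, against 84.4 and 79.3 TPM in EtOH libraries. Of 38 further spindle and division genes, 4 were lower without overlap (10.5%, against 19.4% of all genes tested) and 6 higher (15.8%, against 23.1%), with a median of 0.00. Kif15, the kinesin that backs up Eg5, read 28.0 and 32.7 TPM in OHT libraries, against 44.7 and 49.1 TPM in EtOH libraries. Its OHT values both lay below, at -0.61 (SE 0.14, limma adjusted p = 0.266). Cdc25a, the CDC25 phosphatase that also acts at the start of S phase, stood at -0.36 (SE 0.14), on the opposite side from Cdc25b, and Cks1b, the sister gene of Cks2, at -0.21 (SE 0.10).

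The regulators of the mitotic program were measured at 23 genes, of which 4 were lower without overlap (17.4%, against 19.4% of all genes tested) and 2 higher (8.70%, against 23.1%). Mybl2 (B-MYB) read 375 and 439 TPM in OHT libraries, against 343 and 349 TPM in EtOH libraries (0.23, SE 0.11, limma adjusted p = 0.521). Foxm1 read 36.0 and 53.3 TPM in OHT libraries, against 36.2 and 38.7 TPM in EtOH libraries, a gap carried by OHT replicate 2 (0.22, SE 0.20). Tfdp1, the partner of E2F factors, stood at -0.26 (SE 0.13). Cdkn1a, which encodes the CDK inhibitor p21, read 77.7 and 77.9 TPM in OHT libraries, against 46.4 and 48.7 TPM in EtOH libraries. It had the smallest p of this list (0.70, SE 0.11, limma adjusted p = 0.140), with OHT values close together and both above. With the length and GC trend removed it passed (0.65, limma adjusted p = 0.0259), as did Kif15 (-0.60, adjusted p = 0.0365) and Cdc25a (-0.42, adjusted p = 0.0436). Under that setting 2.06% of all genes tested passed, against 0.0416% in the main fit.

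The genes of DNA replication, a neighbouring phase of the cycle, were read in the same way. Of 46 such genes, both OHT libraries were lower for 24 (52.2%, against 19.4% of all genes tested) and higher for none (against 23.1%), and the median was -0.14 on the log2 scale. From OHT replicate 1 the median was -0.25 and from OHT replicate 2 -0.07, each against the EtOH mean, where the 38 mitotic genes had -0.15 and 0.11. Orc6, a subunit of the origin recognition complex, had the smallest p of the list (162 and 155 TPM in OHT libraries, against 217 and 211 TPM in EtOH libraries, limma adjusted p = 0.262). The difference between the lists was not tested.

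**Figure D5:**
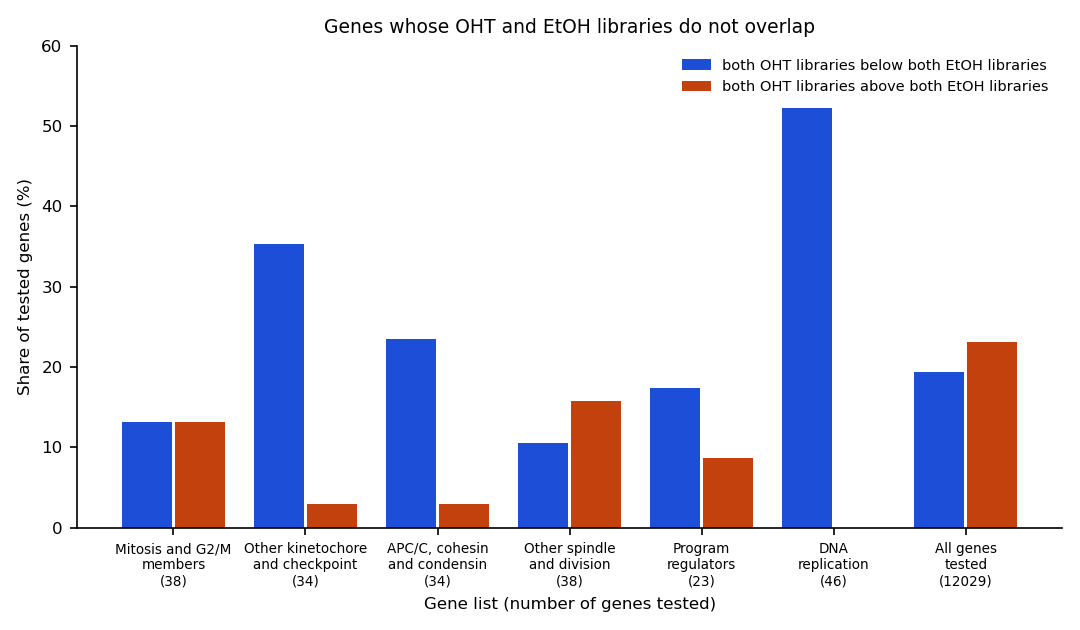
Share of tested genes (%) in each list whose OHT libraries both lie below (left bar) or both lie above (right bar) both EtOH libraries, with all genes tested at the right. Mitosis and G2/M genes have 13.2% in each direction, while DNA replication genes have 52.2% below and 0 above.

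Some values rest on sequence that other genes share. Ccnb1 and Cks2 have pseudogenes of over 95% identity that the table does not list separately, as do Mad2l1 and Ndc80, so reads from those copies could count toward these genes. Exons of Ccna2, Cdc20, Cdc25b, Cdc25c, Kif20a, Kif4, Nusap1, Prc1 and Ube2c overlap a gene on the opposite strand that the table lists, and strand use is not stated. The largest such overlap was Kif20a with Cdc23 (1271 nt), which read 39.1 and 58.7 TPM in OHT libraries, against 51.8 and 58.4 TPM in EtOH libraries.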

How the data were processed

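Poly(A) RNA was sequenced from 2 OHT and 2 EtOH libraries, all labelled batch 2. The deposited TPM values were made by the authors with Trim Galore and Salmon on GRCm38 (mm10), per the submitters' processing notes. For versions, annotation release and strand setting, the sources used here give nothing. TPM keeps no depth, so depth is unknown and no counting interval was computed. Left aside were 2 further value columns, whose names fit none of the samples.

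The members and lists were chosen with earlier results of these data known. Values were taken as log2(TPM + 1), which understates the change of low genes, for genes whose 4 libraries averaged 1 TPM or more (12029 genes, among them all 38 members). Groups were compared with limma 3.58.1 in R 4.3.3 (mean-variance trend, two-sided, 2 residual and 4.01 prior degrees of freedom), with Benjamini-Hochberg adjustment across the genes tested (threshold 0.05). Lists are described by counts and medians, without a set test. Library values are given for the 12 members with the smallest p, 10 members listed as anchors of their roles, and up to 3 genes of each other list. Lin54, on the list of regulators, was not analysed here. Lengths, GC content and coordinates come from GENCODE mouse release M21 (GRCm38), which matched 22213 gene identifiers. Copies were sought with blastn 2.17.0 (95% identity over 50% of a transcript). The trend with length and GC content was a loess fit (span 0.5) of each library's deviation from the mean library. Plots were drawn with matplotlib 3.10.9.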

Additional observations from a re-analysis of the deposited data

How the results depend on the processing

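The count of 0 of the 38 members past the threshold held under 13 of 15 alternatives and became 10 (all higher) without OHT replicate 1 and 9 (all lower) without OHT replicate 2, so it ranged from 0 to 10 with 1 library left out. With no library left out, the count at an unadjusted limma p under 0.05 was 0, with 1 under median of ratios scaling and 2 under quantile normalization. It was 3 once the trend with length and GC was taken out. Fits without 1 OHT library gave larger counts. The member median of -0.03 ranged from -0.15 to 0.11 with 1 library left out, and was -0.06 under median of ratios scaling and 0.01 under quantile normalization, where the median of all genes was -0.01 and 0.00. Members changed sign in places: 7 under median of ratios scaling, 6 under quantile normalization and 13 without the length and GC trend. Sign changes numbered 12 and 13 without OHT replicate 1 or 2. They were not confined to members near 0: Cenpf (-0.17) turned to 0.18 without OHT replicate 1, and Cenpe (0.22) to -0.09 without OHT replicate 2. Top2a (0.01) turned to -0.27 without OHT replicate 2. Over all genes, the count of 5 past the threshold was 0 without a filter on low values (1838 at an unadjusted p under 0.05), 3 under median of ratios scaling, quantile normalization or limma without a trend, 247 without the length and GC trend, and between 34 and 2957 with 1 library left out. With the replicate number as a block it was 474, with 0 members among them. The labels do not say that the numbers pair the libraries, and the deviations of same-numbered libraries correlated at 0.29 over genes. The causes were not tested. TPM without depth limits what can be said of counting error.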
